A study of Mus musculus with 21 samples.

Results

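The genes of blood vessels, lymphatic vessels and their supporting pericytes were followed through mouse rhabdomyosarcomas (RMS), soft tissue tumors with features of skeletal muscle. The 36 genes were chosen by name, out of 19505 genes measured, and comprised 20 blood endothelial genes (13 coding for surface or secreted proteins, 3 for transcription factors and 4 for receptors), 2 angiopoietins, 7 genes of sprouting and of arterial or venous identity, 3 lymphatic genes and 4 pericyte genes. All 36 were on the array, each with 1 probe set, and all 36 had a signal above the median of the background probes in all 21 tumors. RNA came from 14 tumors of NPE mice (Neu1+/−/Ptch1+/−/ETV7 TG+/−) and 7 tumors of PE mice (Ptch1+/−/ETV7 TG+/−), and the labels do not say which tumors, if any, shared a mouse. Every mouse thus lacked a copy of Ptch1, the receptor that holds hedgehog signaling in check, and carried a transgene for human ETV7, an ETS transcription factor. NPE mice also lacked a copy of Neu1, which encodes the lysosomal sialidase. These are germline alleles, so vessel cells and tumor cells of a mouse inherited the same alleles, and later changes in tumor cells were not examined. Both sexes were used, the tumors arose in limb or trunk, and crossing the FVB/NJ Neu1 line to the Ptch1 and ETV7 line gave a mixed background. Sex, age and site of each tumor were not given in the labels.

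Blood endothelial cells line capillaries, arteries and veins, and take signals from VEGF through Kdr and from the angiopoietins through Tek. Pericytes wrap capillaries from the outside and steady them, while lymphatic endothelium drains tissue fluid and depends on the transcription factor Prox1. In a growing tumor these cells form the vessel bed that feeds it.

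Each tumor was a bulk sample on 1 array, with values as log2 signal, so that a difference of 1 is a doubling. Fewer cells of a type and less RNA per cell cannot be told apart in such samples. The median signal of an array lay between 5.32 and 5.41 in NPE tumors and between 5.33 and 5.37 in PE tumors, and the share of probe sets above background was 83.1% to 90.2% in NPE tumors, against 86.4% to 88.6% in PE tumors. Tumor titles end in a further number that falls into 3 ranges, 1 to 10 (8 NPE tumors), 18 to 23 (1 NPE and 5 PE tumors) and 28 to 35 (5 NPE and 2 PE tumors). The meaning of that number is not stated, so differences within the ranges are given beside the results. Over all 19505 genes the log2 fold change, NPE minus PE, had a median of -0.00 and quartiles of -0.09 and 0.09, and 49.7% of genes lay above 0. Some tumors resembled each other, with deviations from the group mean over all genes that correlated at 0.76 in NPE tumors 11 and 12, 0.52 in NPE tumors 7 and 8 and 0.53 in PE tumors 6 and 7.

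Most blood endothelial genes had a somewhat higher mean in NPE tumors, led by the angiopoietin receptor Tek, the tight junction protein Cldn5 and the VEGF receptor Kdr. The pericyte gene Rgs5 was higher too, while Prox1, Angpt2 and Apln were lower. The differences were of about the size of the spread among tumors or smaller, and by limma 0 of 36 genes had an adjusted p under 0.05 (0.00901% of all 22206 probe sets did). The methods also name ANOVA, run here as a plain t-test on each probe set, and by it 0 of 36 did. At an unadjusted p under 0.05, 6 of 36 genes were higher in NPE tumors (16.7%, against 4.05% of all probe sets) and 1 of 36 was lower (2.78%, against 4.36%). By the plain t-test 4 genes were higher (3.67% of all probe sets) and 1 lower (4.49%). The paper's supplement lists genes with a log2 fold change whose size reached 0.5 and a lenient unadjusted p of at most 0.5. At these thresholds the plain t-test gave 3 higher (2.28%) and 3 lower (1.29%). NPE and PE values overlapped for all 36 genes. The count of 6 became 2 without PE tumor 6 (2.86% of all probe sets) and 11 without NPE tumor 11 (4.81%), the tumors with the lowest blood endothelial level in each group. With the title-number ranges as a block, 4 genes were higher (3.72% of all probe sets) and 0 lower (5.12%), and the unadjusted limma p was 0.490 for Esam, 0.223 for Ptprb, 0.0663 for Cldn5, 0.0638 for Kdr and 0.138 for Prox1. That fit takes the difference only from the ranges that hold both groups. Range and genotype cannot be told apart for the 8 NPE tumors of 1 to 10, which holds 0 PE tumors. The genes behind these counts changed with the setting. Of the 6 (Tek, Cldn5, Kdr, Ptprb, Esam and Rgs5), only Tek was still counted without PE tumor 6. Only Tek and Rgs5 were with the ranges as a block, and only Tek, Cldn5 and Rgs5 within 28 to 35. With the resembling pairs averaged, all but Ptprb were. Within 18 to 23, with its single NPE tumor, the genes counted were others. These 6 differed there by -0.12, -0.08, 0.12, -0.18, 0.15 and 0.20, in that order. Within the range 28 to 35 the count of higher genes was 5 (6.57% of all probe sets), within 18 to 23 it was 2 (2.93%), and with the 3 resembling pairs of tumors averaged it was 5 (3.53%).

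**Figure D1:**
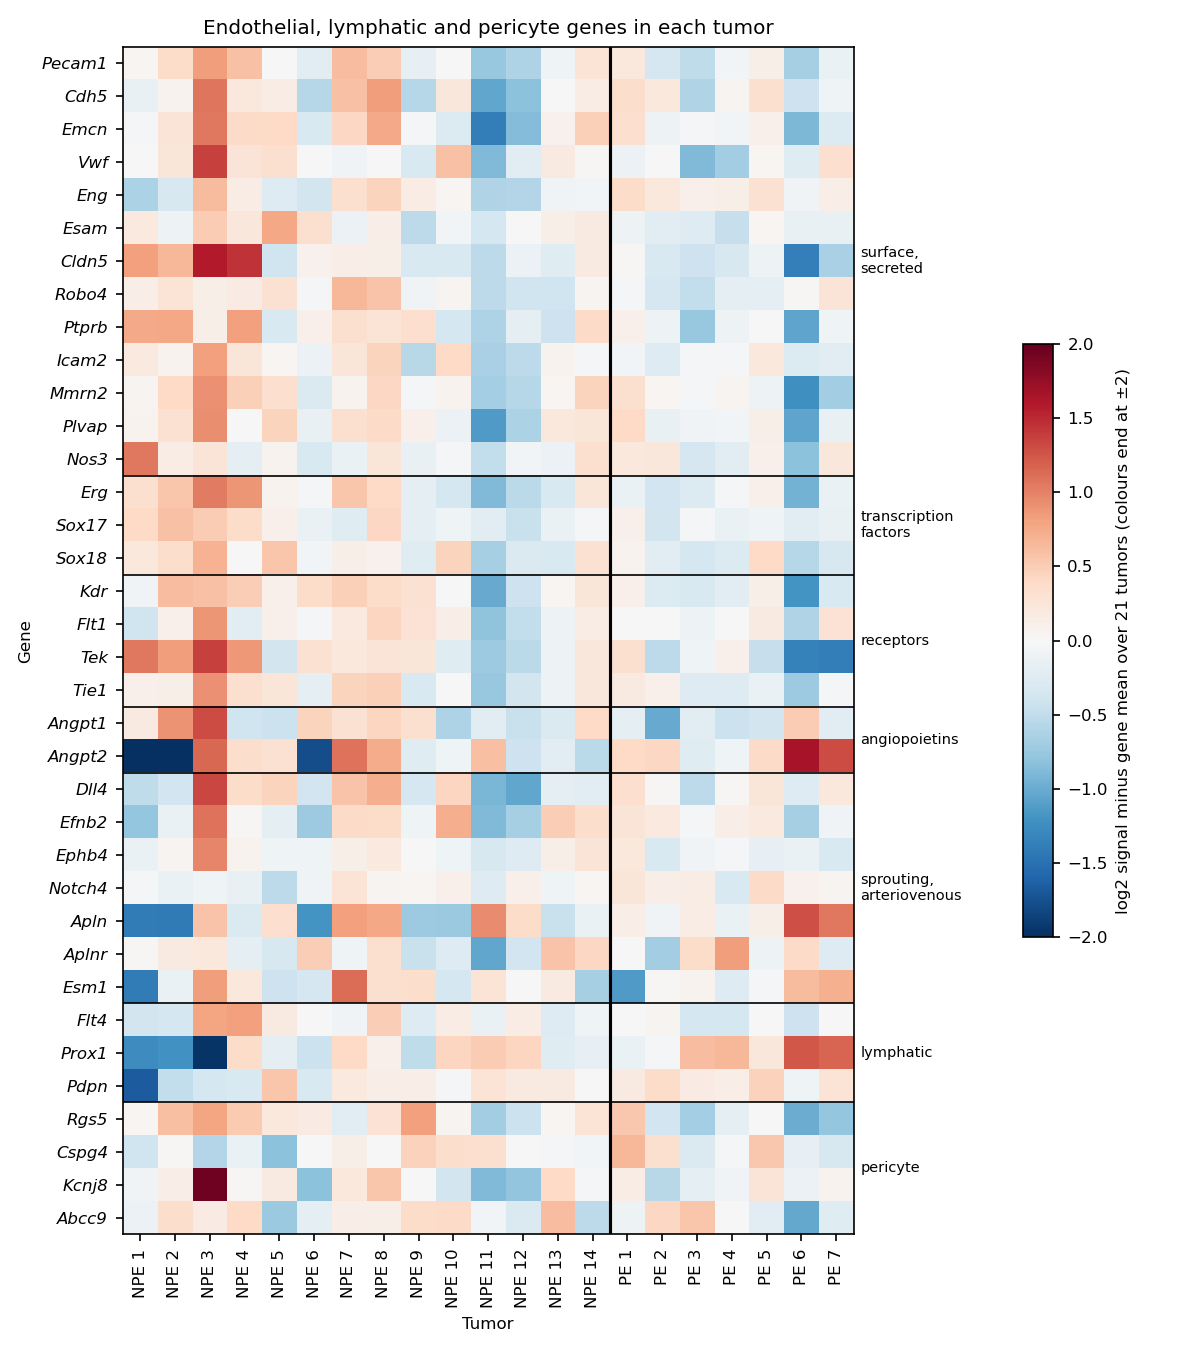
Log2 signal of the 36 genes (down) in 14 NPE and 7 PE tumors (across, NPE left of the line), each minus the mean of that gene over the 21 tumors, with colours ending at ±2. NPE tumor 3 is high and NPE tumor 11 and PE tumor 6 are low in nearly the whole upper block, while Angpt2, Apln and Prox1 follow another course.

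**Figure D2:**
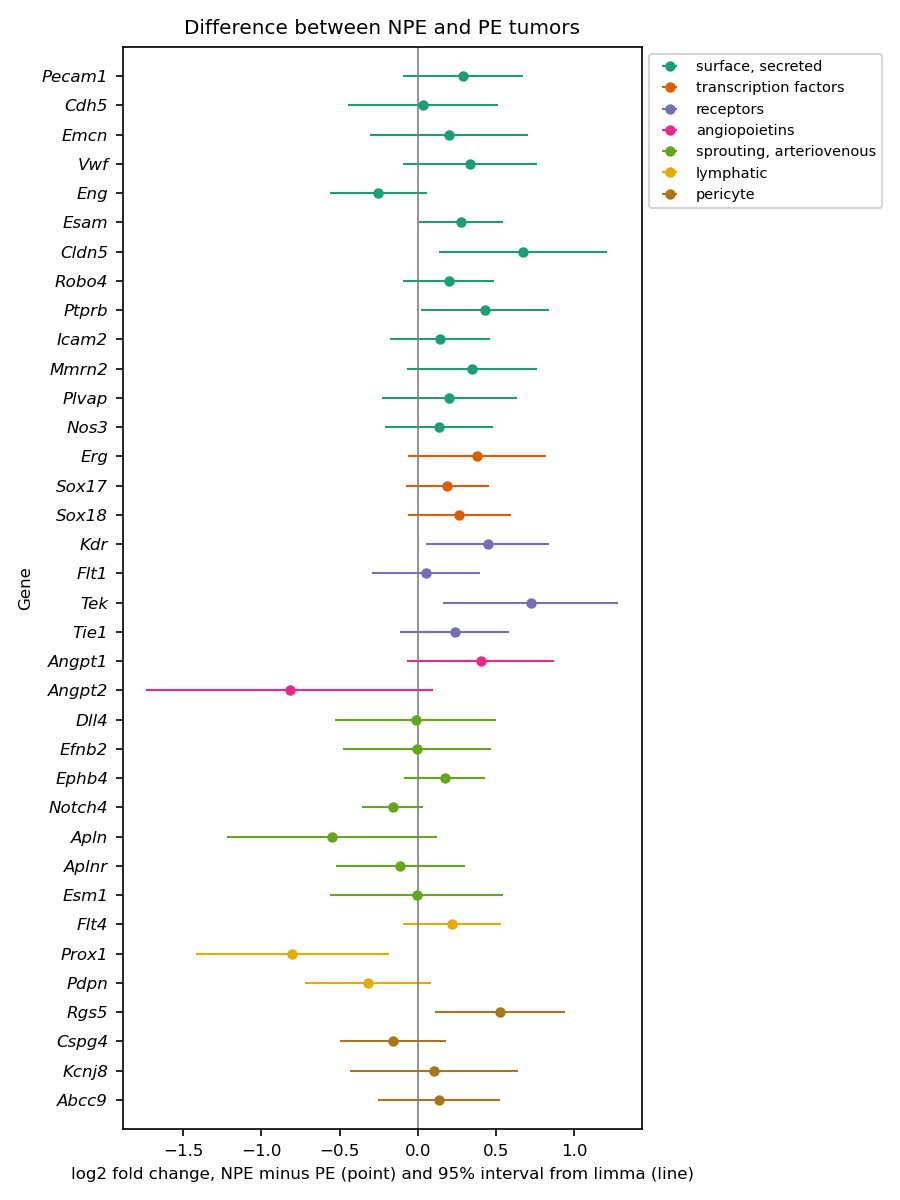
Log2 fold change of each gene, NPE minus PE (horizontal axis), as a point with its 95% interval from limma, coloured by role. Intervals of 6 genes lie above 0 and that of Prox1 lies below 0, before any adjustment for the number of genes tested.

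Of the 13 genes coding for endothelial surface or secreted proteins, 12 had a higher mean in NPE tumors and 1 (Eng) a lower mean, and their median log2 fold change was 0.20. Cldn5, which seals the junctions of tight capillaries, had a lowest, median and highest log2 signal of 4.96, 5.59 and 7.07 in NPE tumors, against 4.12, 5.16 and 5.51 in PE tumors. In 8 NPE tumors Cldn5 exceeded every PE tumor, and 2 PE tumors fell below every NPE tumor. The log2 fold change was 0.67 ± 0.26 (SE), with an unadjusted p of 0.0168 and a limma adjusted p of 0.524. Ptprb, the phosphatase that damps Tek signaling, had 5.98, 6.78 and 7.40 in NPE tumors and 5.54, 6.49 and 6.69 in PE tumors, again with 8 NPE tumors above all PE tumors. Its log2 fold change was 0.43 ± 0.20 (SE, limma adjusted p = 0.573). Esam, an adhesion molecule of endothelial junctions, had 6.42, 7.07 and 7.72 in NPE and 6.49, 6.80 and 6.99 in PE tumors, which is a log2 fold change of 0.28 ± 0.13 (SE, limma adjusted p = 0.580). NPE tumors thus spread on both sides of the PE tumors for Esam, with 8 above and 1 below all of them. Within the range 28 to 35 Ptprb differed by 0.69 and Esam by 0.12, and within 18 to 23 by -0.18 and 0.15.

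None of the other 10 surface and secreted genes had an unadjusted p under 0.05. Cdh5, the cadherin of endothelial junctions, had a median of 8.23 in NPE (7.10 to 9.20) and of 8.19 in PE tumors (7.54 to 8.48), which is a log2 fold change of 0.03 with a 95% interval from -0.45 to 0.52. Pecam1, the adhesion molecule CD31, differed by 0.29 (interval -0.09 to 0.67). Vwf, the clotting factor carrier of endothelium, differed by 0.33 (interval -0.10 to 0.76). Eng, a TGF-β co-receptor, was the exception in direction at -0.25 (interval -0.56 to 0.06), and 7 NPE tumors lay below all PE tumors. The remaining surface and secreted genes Emcn, Robo4, Icam2, Mmrn2, Plvap and Nos3 had log2 fold changes between 0.14 and 0.35. None of these intervals excluded 0.

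The transcription factors Erg, Sox17 and Sox18, which hold endothelial identity and vessel growth, all had a higher mean in NPE tumors, with log2 fold changes of 0.38, 0.19 and 0.27 and limma adjusted p-values from 0.638 to 0.711. Erg, an ETS factor, had a lowest, median and highest value of 5.35, 6.39 and 7.27 in NPE and 5.29, 6.10 and 6.34 in PE tumors. In 7 NPE tumors Erg was above all PE tumors. No test singled these 3 genes out.

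Among the receptors, Tek had the largest positive difference of the 36 genes. Its lowest, median and highest values were 4.92, 5.87 and 7.00 in NPE tumors, against 4.26, 5.18 and 5.96 in PE tumors. NPE tumors 1, 2, 3 and 4 stood above all PE tumors, and PE tumors 6 and 7 (4.29 and 4.26) below all NPE tumors. The log2 fold change was 0.72 ± 0.27 (SE, unadjusted p = 0.0139, limma adjusted p = 0.513). Kdr, the main VEGF receptor of endothelium, had 7.00, 8.28 and 8.62 in NPE and 6.81, 7.73 and 8.12 in PE tumors, which is a log2 fold change of 0.45 ± 0.19 (SE, limma adjusted p = 0.540). The other receptors, Flt1, which traps VEGF, and Tie1, the partner of Tek, differed by 0.05 and 0.24. Within the range 28 to 35 Tek differed by 1.38, Cldn5 by 1.22 and Kdr by 0.73, and within the range 18 to 23, which holds a single NPE tumor, by -0.12, -0.08 and 0.12.

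The promoter windows of Tek, Cldn5 and Kdr, the blood endothelial genes with the highest log2 fold changes, are shown because endothelial promoters are read by ETS factors such as Erg, whose binding sites hold the core GGAA. The words CAGGAA and CCGGAA, which hold that core, were searched on both strands of RefSeq windows (GRCm38.p6) from 250 bases before to 50 bases after the start of a gene, and matches stand in capitals.
Tek, chr4:94739039-94739338, plus strand: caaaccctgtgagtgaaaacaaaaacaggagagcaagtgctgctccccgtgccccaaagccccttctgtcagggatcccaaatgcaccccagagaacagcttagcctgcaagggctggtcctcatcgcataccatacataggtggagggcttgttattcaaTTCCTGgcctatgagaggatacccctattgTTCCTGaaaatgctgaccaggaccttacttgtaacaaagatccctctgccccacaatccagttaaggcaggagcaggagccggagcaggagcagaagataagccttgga
Cldn5, chr16:18776597-18776896, plus strand: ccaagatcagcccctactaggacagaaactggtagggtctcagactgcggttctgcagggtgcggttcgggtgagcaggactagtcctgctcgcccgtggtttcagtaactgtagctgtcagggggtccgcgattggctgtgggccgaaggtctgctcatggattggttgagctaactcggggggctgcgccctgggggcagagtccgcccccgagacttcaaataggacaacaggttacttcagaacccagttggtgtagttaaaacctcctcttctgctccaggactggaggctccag
Kdr, chr5:75978406-75978705, minus strand: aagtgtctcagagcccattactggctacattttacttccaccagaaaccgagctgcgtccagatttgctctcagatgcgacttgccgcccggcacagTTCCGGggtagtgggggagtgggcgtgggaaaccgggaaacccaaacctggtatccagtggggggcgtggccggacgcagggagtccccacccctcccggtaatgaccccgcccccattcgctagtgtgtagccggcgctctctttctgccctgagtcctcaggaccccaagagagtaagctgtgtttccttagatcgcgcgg
The window of Tek held CAGGAA 2 times, both on the opposite strand (TTCCTG), that of Kdr held CCGGAA 1 time on the opposite strand (TTCCGG), and that of Cldn5 held neither. Windows were matched for 22 of the 36 genes. CAGGAA was in 11 of these 22 windows and in 30.4% of the windows of all 27025 genes, and CCGGAA in 1 of 22 and in 15.2% of all windows. A match is a string of letters, not a bound site. Other words with the core GGAA were not searched and stay in lower case, as in the window of Kdr. The marked words thus do not count all copies of the core. Not matched were Pecam1, Cdh5, Vwf, Esam, Ptprb, Icam2, Mmrn2, Plvap, Nos3, Sox17, Sox18, Angpt1, Angpt2 and Aplnr.

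The ligands of Tek had means that differed in opposite directions. Angpt2, which sprouting endothelium releases and which counters Angpt1 at Tek, had the widest range of the 36 genes, 4.29 on the log2 scale. Its lowest, median and highest values were 3.15, 5.64 and 6.96 in NPE tumors and 5.57, 6.21 and 7.45 in PE tumors. NPE tumors 1, 2 and 6 were lowest at 3.15, 3.69 and 4.03, and PE tumors 6 and 7 were highest at 7.45 and 7.11, above all NPE tumors. The value of 3.15 in NPE tumor 1 lay just above the background median of that array (3.07), so it gives little more than an upper limit there. The log2 fold change of Angpt2 was -0.82 ± 0.44 (SE, unadjusted p = 0.0774, limma adjusted p = 0.631), and -0.64 without NPE tumor 1. Angpt1, which pericytes and other mural cells supply to steady vessels, had 6.73, 7.59 and 8.65 in NPE and 6.33, 7.13 and 7.85 in PE tumors, a difference of 0.40 ± 0.23 (SE, limma adjusted p = 0.640). Within the ranges 18 to 23 and 28 to 35 Angpt1 was lower in NPE tumors, at -0.18 and -0.21, and Angpt2 was at -0.27 and -1.01.

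Within each tumor, Angpt2 minus Angpt1 averaged -1.95 ± 1.35 in NPE tumors and -0.72 ± 0.58 in PE tumors (SD). The difference was -1.22, with p = 0.0287 in an exact permutation test over all 116280 splits (two-sided, unadjusted). By the same test Angpt2 alone had p = 0.104 and Angpt1 alone p = 0.114. The genes were chosen with earlier results of these data known, so this p is best read as descriptive. The lowest, median and highest differences were -4.55, -1.49 and -0.73 in NPE tumors and -1.57, -0.79 and -0.02 in PE tumors, and the groups overlapped. A fixed offset between the probe sets cancels in this comparison of tumors, but the size of the difference itself is not a ratio of transcripts. The exact p was 0.0568 without PE tumor 2 and 0.0588 without PE tumor 7. The lowest value, -4.55, is that of NPE tumor 1, where Angpt2 was near background, and without that tumor the difference was -1.04 (exact p = 0.0405). Without NPE tumors 1 and 2 it was -0.81 (exact p = 0.0425). Within the range 28 to 35 it was -0.79 (exact p = 0.0952 over 21 splits) and within 18 to 23 it was -0.09 (exact p = 0.833 over 6 splits, where no smaller p than 1 in 6 can be had).

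**Figure D3:**
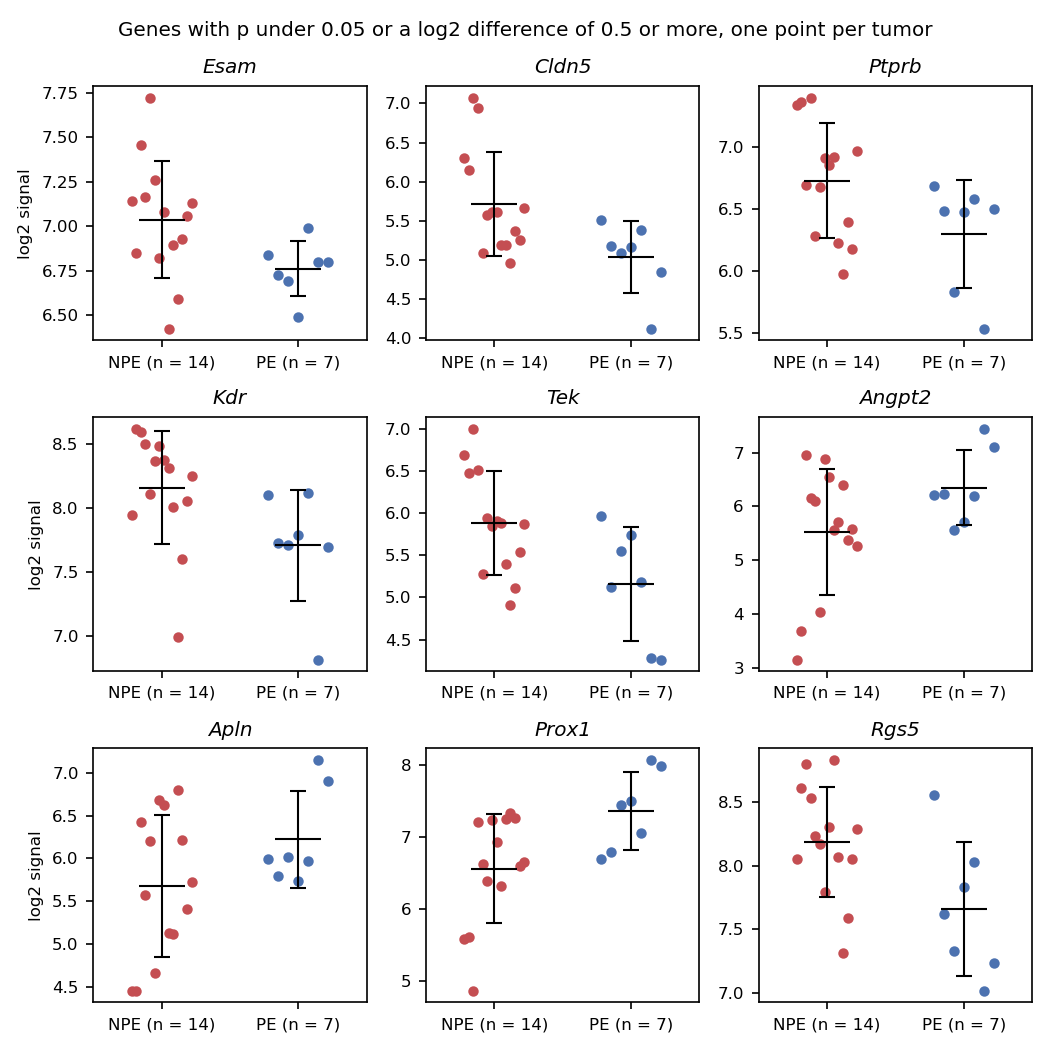
Log2 signal (vertical axis) of the 9 genes with an unadjusted p under 0.05 or a log2 fold change whose size reached 0.5, with a point for each tumor and the mean ± SD in black. Angpt2, Apln and Prox1 have their lowest points among the 14 NPE tumors on the left, and Tek, Cldn5, Kdr, Ptprb and Rgs5 among the 7 PE tumors on the right.

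The 7 genes of sprouting and arteriovenous identity had a median log2 fold change of -0.01. Apln, a peptide of sprouting tip cells, had a lowest, median and highest value of 4.45, 5.65 and 6.80 in NPE tumors, against 5.73, 5.998 and 7.16 in PE tumors. In 8 NPE tumors Apln was below all PE tumors. Its log2 fold change was -0.55 ± 0.32 (SE, unadjusted p = 0.105, limma adjusted p = 0.661), -0.79 within the range 18 to 23 and -0.65 within 28 to 35. Of the other tip cell genes, Esm1 differed by -0.01 (95% interval -0.56 to 0.55) and Dll4, the Notch ligand, by -0.01 (interval -0.53 to 0.50). The arterial ligand Efnb2 differed by -0.00 (interval -0.48 to 0.47) and its venous receptor Ephb4 by 0.17 (interval -0.09 to 0.43). Aplnr, the receptor of apelin, and Notch4 differed by -0.11 and -0.16.

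The 3 lymphatic genes did not share a direction. Prox1, which sets lymphatic identity but is also made by skeletal muscle cells, had a lowest, median and highest value of 4.86, 6.65 and 7.33 in NPE tumors, against 6.70, 7.44 and 8.08 in PE tumors. NPE tumors 3, 1 and 2 were lowest at 4.86, 5.58 and 5.61, and 4 PE tumors were above all NPE tumors. The log2 fold change was -0.80 ± 0.30 (SE, unadjusted p = 0.0132, limma adjusted p = 0.513). It was -0.84 within the range 28 to 35, where the limma adjusted p was 0.0303, and 0.16 within 18 to 23. The range 28 to 35 holds 5 NPE and 2 PE tumors, among them all 3 resembling pairs, which that fit counts as separate tumors. With the ranges as a block the log2 fold change of Prox1 was -0.47 (limma adjusted p = 0.728).

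Flt4, the VEGF-C receptor of lymphatic vessels, had 4.93, 5.26 and 6.13 in NPE and 4.89, 5.29 and 5.37 in PE tumors, which is a log2 fold change of 0.22 (95% interval -0.09 to 0.54). Pdpn, a mucin of lymphatic endothelium and of some fibroblasts, had 6.75, 8.48 and 8.96 in NPE and 8.32, 8.58 and 8.88 in PE tumors, which is a log2 fold change of -0.32 (interval -0.72 to 0.09). Of the NPE tumors, tumor 1 was lowest for both genes.

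The pericyte genes differed in direction as well, 3 with a higher and 1 with a lower mean in NPE tumors, with a median of 0.12. Rgs5, a G protein regulator that marks pericytes, had a lowest, median and highest value of 7.32, 8.20 and 8.83 in NPE tumors, against 7.02, 7.62 and 8.55 in PE tumors. PE tumors 6 and 7 (7.02 and 7.24) were below all NPE tumors, and 3 NPE tumors were above all PE tumors. The log2 fold change was 0.53 ± 0.20 (SE, unadjusted p = 0.0152, limma adjusted p = 0.517), 0.78 within the range 28 to 35 and 0.20 within 18 to 23. Kcnj8 and Abcc9, the pore and the regulatory subunit of the pericyte potassium channel, differed by 0.11 and 0.14, and Cspg4, the proteoglycan NG2, by -0.16. Kcnj8 reached 7.95 in NPE tumor 3, against at most 6.27 in PE tumors.

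For single genes, an exact permutation test over the same 116280 splits (two-sided, unadjusted) gave p = 0.0208 for Prox1, 0.0235 for Tek, 0.0247 for Cldn5, 0.0248 for Rgs5 and 0.0365 for Kdr. It gave 0.0510 for Esam, 0.0572 for Ptprb, 0.104 for Angpt2 and 0.135 for Apln. Leaving out PE tumor 6 took the unadjusted limma p of Cldn5 to 0.0592, of Kdr to 0.106, of Rgs5 to 0.0514 and of Ptprb to 0.138. That p was over 0.05 in 14 of 21 omissions of a single tumor for Esam and in 9 of 21 for Ptprb, while that of Tek stayed at or under 0.0486 and that of Prox1 at or under 0.0390 with any single tumor left out.

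To set the gene groups against each other in a tumor, each gene was expressed relative to its mean over the 21 tumors and averaged over its group. The blood endothelial level ran from -0.73 (tumor 11) over a median of 0.17 to 0.81 (tumor 3) in NPE tumors, and from -0.69 (tumor 6) over -0.14 to 0.13 (tumor 1) in PE tumors. In NPE tumor 3 all 20 blood endothelial genes were above their own median over the tumors, as they were in NPE tumor 8, and in NPE tumor 11 and PE tumor 6 it was 0 of 20. The pericyte level was highest in NPE tumor 3 (0.58) and lowest in PE tumor 6 (-0.58), with medians of 0.08 in NPE and -0.07 in PE tumors. The mean level of the 3 lymphatic genes was lowest in NPE tumors 1, 2 and 3 (-1.09, -0.69 and -0.51), while all 7 PE tumors lay between 0.01 and 0.48. In NPE tumor 3 these genes were split, with Prox1 at its lowest (4.86) and Flt4 at 6.09, above all tumors but NPE tumor 4. PE tumor 6 was split the other way, with Prox1 at its highest over all tumors (8.08) and Flt4 at its lowest (4.89). The mean is thus not a measure of lymphatic vessels in these tumors. The sprouting level had a range of -0.61 to 0.70 over the NPE tumors, against -0.10 to 0.20 over the PE tumors.

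**Figure D4:**
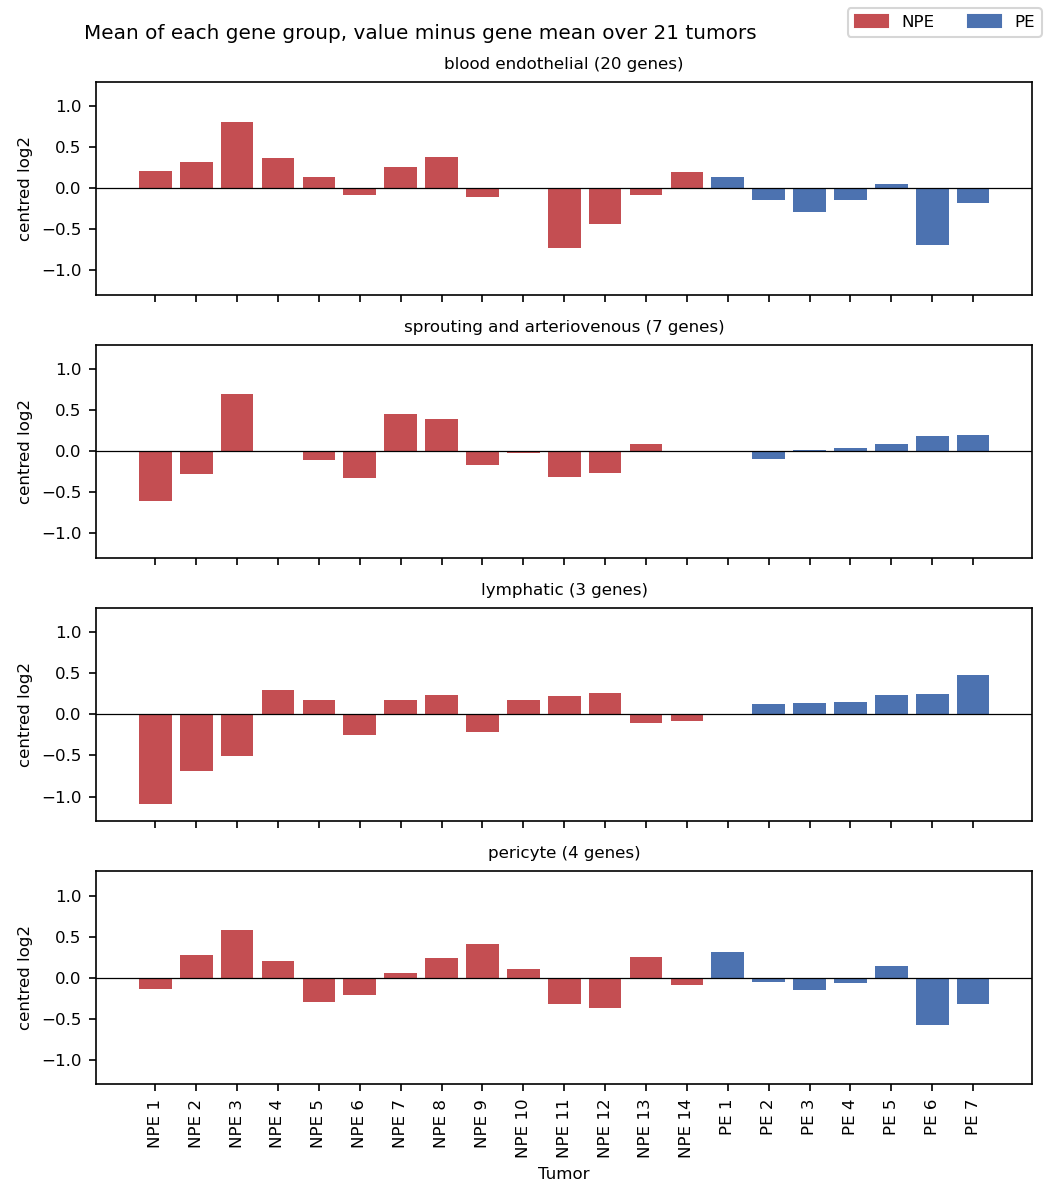
Mean level of the blood endothelial, sprouting and arteriovenous, lymphatic and pericyte genes in each tumor (NPE left, PE right), as log2 signal minus the gene means over the 21 tumors. NPE tumor 3 has the highest blood endothelial level (0.81) together with a mean of -0.51 for the 3 lymphatic genes (Prox1 low, Flt4 high). PE tumor 6 has a blood endothelial level of -0.69 together with a mean of 0.25 for these genes (Prox1 high, Flt4 low).

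The balance between the gene groups differed from tumor to tumor. Lymphatic minus blood endothelial level was above 0 in 4 of 14 NPE tumors and in 6 of 7 PE tumors, with medians of -0.09 in NPE and 0.29 in PE tumors. The extremes were -1.32 in NPE tumor 3 and 0.95 in NPE tumor 11. Of the NPE tumors these had the lowest and the highest Prox1 (4.86 and 7.33). The 3 lymphatic genes did not share a direction, and Prox1 is also made by skeletal muscle cells. This balance thus does not measure lymphatic vessels alone. Pericyte minus blood endothelial level was above 0 in 5 of 14 NPE and 6 of 7 PE tumors, with medians of -0.13 in NPE and 0.09 in PE tumors. NPE tumors covered the whole range of PE tumors in both balances, from -0.43 to 0.52 for the pericyte balance, against -0.14 to 0.18 in PE tumors. These are descriptions of the chosen genes and were not tested.

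Across the 21 tumors, 7 pairs of genes were correlated, with p-values from 100000 permutations adjusted over the 7 pairs. The permutation p-values of the rank correlation rho are printed unadjusted, and after adjustment over the 7 pairs none was under 0.0995. Cdh5 and Rgs5, the endothelial and the pericyte gene, had r = 0.49 (permutation p = 0.0233, adjusted 0.0545) and rho = 0.47 (permutation p = 0.0326), with r = 0.49 within NPE and 0.81 within PE tumors. Within the ranges 1 to 10, 18 to 23 and 28 to 35 r was 0.29, 0.79 and 0.65, and it was 0.30 without NPE tumors 3 and 11, the farthest from the median of Cdh5. Vegfa, the growth factor that hypoxia raises, and Angpt2 had r = 0.52 (permutation p = 0.0146, adjusted 0.0511) and rho = 0.50 (permutation p = 0.0228), with r = 0.51 within NPE and 0.07 within PE tumors and 0.59 without NPE tumors 4 and 6. Within the 3 ranges that r was 0.72, 0.64 and 0.23.

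Myog, the myogenic regulator that marks the muscle program of RMS cells, and Prox1 had r = 0.71 (permutation p = 0.0007, adjusted 0.0049). The relation rested on NPE tumors 1 and 3, since r was 0.25 without them, and rho was 0.43 (permutation p = 0.0532). Myog was 6.08 in NPE tumor 3 and 7.77 in NPE tumor 1, the lowest of all tumors, and Prox1 was 4.86 and 5.58 there. Within NPE tumors r was 0.73 and within PE tumors -0.16, and it was 0.91, 0.27 and 0.36 within the 3 ranges.

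The other 4 pairs had adjusted permutation p-values from 0.149 to 0.595. Prox1 and Cdh5 had r = -0.34 and rho = -0.24 (permutation p = 0.127 and 0.293), with -0.31 within NPE and -0.70 within PE tumors, -0.59, -0.64 and -0.36 within the ranges and -0.04 without NPE tumors 3 and 11. Prox1 and its fellow lymphatic gene Flt4 had r = -0.18 and rho = -0.07 (permutation p = 0.420 and 0.770), with 0.06 within NPE and -0.58 within PE tumors, -0.42, -0.66 and -0.65 within the ranges and 0.12 without NPE tumors 3 and 4. Adipoq, the adipocyte hormone adiponectin, and Cdh5 had r = 0.38 and rho = 0.42 (permutation p = 0.0849 and 0.0569), with 0.38 within NPE and 0.55 within PE tumors, 0.04, 0.36 and 0.78 within the ranges and 0.52 without NPE tumors 1 and 2. Kcnj8 and Abcc9, although subunits of a shared channel, had r = 0.12 and rho = 0.09 (permutation p = 0.595 and 0.697), with 0.25 within NPE and -0.42 within PE tumors, 0.27, -0.85 and 0.25 within the ranges and 0.08 without NPE tumors 3 and 11.

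**Figure D5:**
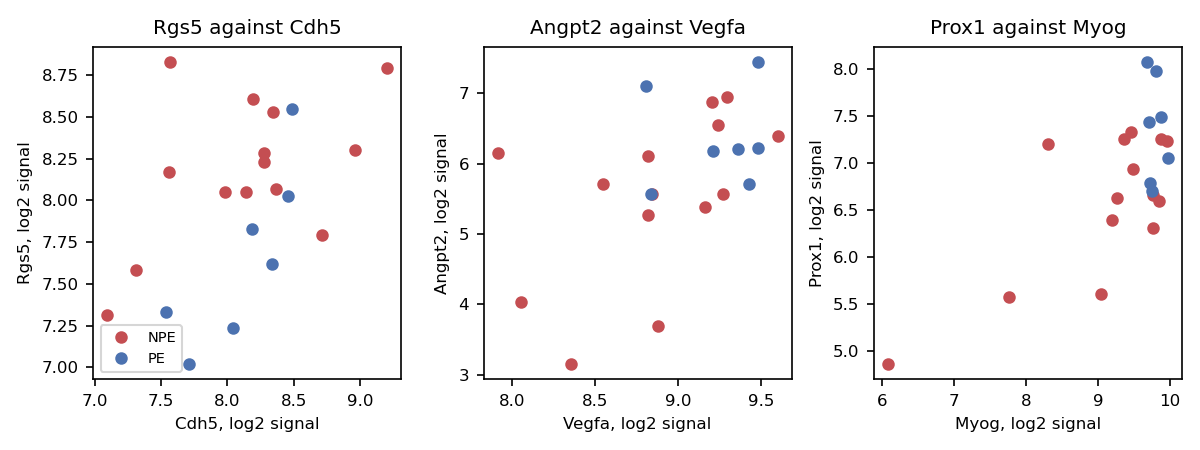
Log2 signals of Rgs5 against Cdh5, Angpt2 against Vegfa and Prox1 against Myog in each of 14 NPE (red) and 7 PE tumors (blue). In the plot of Prox1 against Myog, NPE tumor 3 (6.08 and 4.86) and NPE tumor 1 (7.77 and 5.58) stand apart at the lower left.

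Of 50 further genes of the same pathways, 47 were measured, and none had an adjusted p under 0.05 by limma. At an unadjusted p under 0.05, 3 genes had a higher mean in NPE tumors (6.38%, against 4.05% of all probe sets) and 5 a lower mean (10.6%, against 4.36%), and the median log2 fold change of the 47 was 0.03. Of 15 further blood endothelial markers 12 had a higher mean in NPE tumors (median 0.15). Calcrl, the receptor of adrenomedullin, was higher by 0.70 ± 0.19 (SE, unadjusted p = 0.00115, limma adjusted p = 0.401) and Cd34, a sialomucin of capillaries, by 0.51 ± 0.21 (limma adjusted p = 0.530). Of 7 further lymphatic markers 6 had a higher mean in NPE tumors (median 0.29), while of the 3 lymphatic genes above 2 had a lower mean. The chemokine Ccl21a was higher by 1.01 ± 0.38 (limma adjusted p = 0.513) and Stab2, a hyaluronan scavenger receptor of sinusoidal and lymphatic endothelium, was lower at -1.46 ± 0.48 (limma adjusted p = 0.503). Ccl21a had a median of 6.47 in NPE (5.33 to 9.28) and of 5.72 in PE tumors (5.57 to 6.01). Stab2 had a median of 3.71 in NPE (3.13 to 6.15) and of 6.10 in PE tumors (3.26 to 7.14). Background medians were 2.64 to 3.18 on NPE arrays, so the lowest NPE values of Stab2 give little more than an upper limit. Of 9 measured genes of the Notch and ephrin pathway 7 had a lower mean in NPE tumors, with Notch1, the receptor, at -0.23 and its target genes Hey2 and Heyl at -0.55 and -0.34 (limma adjusted p from 0.513 to 0.580). Of 8 further pericyte markers 5 had a lower mean in NPE tumors (median -0.19), while of the 4 pericyte genes above 3 had a higher mean. Notch3, the Notch receptor of mural cells, was at -0.48 (limma adjusted p = 0.540). Vegfa was at -0.37 ± 0.19 (limma adjusted p = 0.616). Within the ranges 18 to 23 and 28 to 35 Stab2 differed by -1.39 and -1.97 and Ccl21a by 0.90 and 1.36. Within 28 to 35, Calcrl at 1.48 and Notch3 at -1.22 had limma adjusted p-values of 0.0356 and 0.0133, and with the ranges as a block Hey2 at -1.09 had 0.0318. The fit within 28 to 35 counts the resembling pairs of tumors there as separate tumors. Within 18 to 23, with 1 NPE tumor, Calcrl, Notch3 and Hey2 differed by 0.10, -0.06 and -0.75.

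Markers of other cell types moved beside the vessel genes, and their part in the results was not tested. On the same centred scale the adipocyte list (7 of 8 genes measured, 7 of 7 with a higher mean in NPE tumors) ran from -1.38 to 3.52 in NPE and from -1.66 to 0.51 in PE tumors, highest in NPE tumors 1 and 2 (3.52 and 3.50), where Angpt2 was lowest. The smooth muscle list (8 of 8 higher) ran from -1.04 to 1.84 in NPE and from -0.88 to -0.13 in PE tumors. The hypoxia list, which includes Vegfa (8 of 8 lower), ran from -1.20 to 0.89 in NPE and from 0.03 to 0.70 in PE tumors. The myogenic regulator list (7 of 8 lower) ran from -2.82, in NPE tumor 3, to 0.82 in NPE and from -0.24 to 0.69 in PE tumors. The skeletal muscle fibre list (8 of 8 higher, median 0.38) ran from -1.68 to 1.68 in NPE and from -1.33 to 0.30 in PE tumors. The macrophage, fibroblast, keratinocyte and red blood cell lists had median log2 fold changes between -0.04 and 0.10. Y-linked genes, a sign of the sex of the mouse, ran from -2.83 to 2.27 in NPE and from -2.66 to 1.99 in PE tumors. Their level lay between -2.83 and -2.47 in NPE tumors 2, 3, 5, 6, 7, 8 and 10 and in PE tumor 5. In all other tumors it lay between 1.15 and 2.27. The mean level was -0.54 in NPE and 1.07 in PE tumors, so this sign of sex was not balanced between the groups. With this level as a covariate, 3 of the 36 genes were higher at an unadjusted limma p under 0.05 (3.31% of all probe sets). At that threshold 2 were lower (3.72%), namely Prox1 and Eng. Eng differed by -0.35 with the covariate, against -0.25 without it. The unadjusted limma p with the covariate was 0.126 for Kdr, 0.163 for Esam and 0.066 for Ptprb. It stayed under 0.05 for Tek (0.036), Cldn5 (0.039), Prox1 (0.045) and Rgs5 (0.048). The median log2 fold change of the 20 blood endothelial genes was 0.12 with the covariate, against 0.25 without it.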

How the data were processed

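Clariom S Mouse arrays measured the RNA of 14 NPE and 7 PE tumors, with an array for each. The authors deposited log2 signals, made by RMA (background correction, quantile normalization and median polish), in Affymetrix Expression Console 1.1 per the labels and also in Partek Genomics Suite per the methods. The labels and the methods name different labeling kits. The build behind the array was not given in the sources used here, and array number limits precision. Of 28846 probe sets, 94 controls and 6546 with names starting MG- were left out, which leaves 22206. GEO's array annotation, which can be old, gave 1 symbol to 19572 of them and none to 2634. Where 55 genes had several probe sets, that with the highest mean was used.

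The NPE and PE groups were compared with limma 3.58.1 in R 4.3.3 (lmFit and eBayes, 2-sided, no covariate) over all 22206 probe sets, with Benjamini-Hochberg adjustment at 0.05. The fit and the permutation test were tested on simulated data. The members and lists were chosen with earlier results of these data known. Full statistics are given for genes with an unadjusted p under 0.05 or a log2 fold change whose size reached 0.5, and of the pathway lists genes with an unadjusted p under 0.05 and Vegfa are named. Other genes were named to account for every member. The labels do not say which mouse a tumor came from, so p-values measure the spread between these tumors. Alternatives changed the variance model, test, weights, normalization, probe sets, covariates, blocks and tumors. Not matched on the array were the list genes Nrp1, Ephb2 and Egfl7. Python 3.11.15 with matplotlib 3.10.9 drew the plots.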

Additional observations from a re-analysis of the deposited data

Results flagged for a closer look

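Among 41 sets of PE values checked for a tumor far from the other 6, 3 had such a tumor. Chance gives about 1 in 20, so the count is near that share. The 41 sets are not independent, since the group levels and Angpt2 minus Angpt1 were made from the same genes. In each of the 3 sets the tumor was PE tumor 6, the lowest. Its log2 signal was 6.64 for Plvap, a protein of fenestrated capillaries, 6.81 for Kdr and 7.80 for Efnb2. The next lowest PE values were 7.54 for Plvap, 7.70 for Kdr and 8.41 for Efnb2. NPE tumors, which are too many for this check, reached down to 6.56 for Plvap, 7.00 for Kdr and 7.60 for Efnb2, all in tumor 11.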

How the results depend on the processing

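Over 36 alternatives, 21 of which left out a single tumor, 1211 of 1296 log2 fold changes of the 36 genes kept their sign, and 13 genes kept it under every alternative. The count of genes with a limma adjusted p under 0.05 was 0 under the others but 1 within the range 28 to 35 (Prox1, -0.84) and 1 with a replicate block (Tek, 1.09). The range 28 to 35 holds all the resembling pairs of tumors, counted there as separate tumors. The replicate block used the tumor numbers 1 to 7 that both groups share. These numbers do not pair the tumors, since the deviations of same-numbered tumors correlated at -0.32 to 0.13, with 2 of 7 over 0.1, and 0 NPE tumors were most like the PE tumor of their number. Among all probe sets 1 was higher and 1 lower, against 196 and 47 with the replicate block, 320 and 76 in the same 14 tumors without it (an alternative chosen after seeing the data), 149 and 206 within 28 to 35, 4 and 0 within 18 to 23 and 5 and 9 with the ranges as a block. The plain t-test called 1 higher and 0 lower after Benjamini-Hochberg adjustment.

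The median of the lymphatic genes was 0.16 within 18 to 23, and that of the pericyte genes 0.50 within 28 to 35. Angpt2 minus Angpt1 differed by -0.085 within 18 to 23, by -0.79 within 28 to 35 and by -1.67 with the replicate block (exact p = 0.0781), and by -1.37 to -1.02 with single tumors left out. The correlation of Myog and Prox1 was 0.68 without NPE tumors 1 and 2 (adjusted permutation p = 0.0559).

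Signs turned for differences near 0 and, within the title-number ranges, also for larger ones. Among these were Tek, Cldn5 and Prox1 within 18 to 23 (0.72, 0.67 and -0.80 over all tumors). The 20 blood endothelial genes had a median log2 fold change of 0.25 over all tumors. That median was 0.04 within 18 to 23 and 0.34 within 28 to 35. Within 18 to 23, with its single NPE tumor, the log2 fold change was -0.32 for Emcn, -0.077 for Cldn5, -0.18 for Ptprb, -0.17 for Plvap, -0.023 for Nos3, -0.21 for Erg, -0.12 for Tek, -0.18 for Angpt1, 0.41 for Dll4, 0.57 for Efnb2, -0.020 for Ephb4, 0.16 for Prox1, 0.11 for Cspg4, -0.29 for Kcnj8 and 0.032 for Heyl. Within 28 to 35 it was -0.23 for Vwf, -0.045 for Robo4, -0.027 for Flt1, -0.21 for Angpt1, 0.22 for Efnb2, 0.00091 for Pdpn, 0.30 for Cspg4 and -0.14 for Kcnj8. With the ranges as a block it was -0.20 for Angpt1, 0.13 for Dll4, 0.35 for Efnb2, 0.23 for Cspg4 and -0.20 for Kcnj8. With the Y-linked mean as a covariate it was -0.19 for Cdh5, -0.020 for Icam2, -0.11 for Flt1 and -0.058 for Kcnj8. Array weights gave -0.034 for Cdh5, 0.20 for Esm1 and -0.012 for Kcnj8. Cyclic loess gave 0.013 for Dll4, 0.032 for Efnb2 and 0.0039 for Esm1. Without NPE tumors 1 and 2 it was 0.061 for Dll4, 0.073 for Efnb2 and 0.12 for Esm1, and with resembling tumors averaged 0.0096 for Dll4 and 0.035 for Esm1. Dll4 was at 0.20 in the 14 tumors numbered 1 to 7, with or without the replicate block. With single tumors left out, the range was -0.061 to 0.12 for Cdh5, -0.039 to 0.12 for Flt1, -0.12 to 0.067 for Dll4, -0.11 to 0.065 for Efnb2, -0.24 to 0.016 for Aplnr, -0.20 to 0.11 for Esm1, -0.041 to 0.18 for Kcnj8 and -0.020 to 0.24 for Abcc9. The cause of these changes was not tested.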
